A study of Mus musculus with 10 samples.

Results

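The genes described here are 39 interferon response genes: transcription factors that carry the interferon signal, sensors of foreign nucleic acid, and effectors whose transcription interferon raises. They were chosen by gene symbol, and the row with the highest mean signal was taken for each gene. Of the 39 genes, 37 had a row of their own among the 19938 genes measured, namely 8 signalling factors, 6 sensors and 23 effectors. Isg15 was represented only by a row shared with Gm9706 and was not counted, and Ifi44 was not analysed here. None of the 37 genes lies in the segments that Ts65Dn mice carry in 3 copies, so all were present in 2 copies in both genotypes.

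The samples were the hippocampi of 5 Ts65Dn mice and 5 disomic control littermates. All 10 mice were males aged 16 weeks on an F1 hybrid B6C3B background, with no treatment given in the labels, and 1 array was hybridised with total RNA of the left and right hippocampus of each mouse. Ts65Dn mice are a model of Down syndrome with a supplementary chromosome that holds the distal part of mouse chromosome 16 (Mmu16, from Mrpl39 to Zbtb21), homologous to human chromosome 21. The same chromosome carries the centromeric part of Mmu17, which has no such homology and is an inherent limit of the model, as is the mixed background. Signals are log2 values after robust multi-array averaging (RMA), a method that corrects for background, normalizes across arrays and summarises the probes of a gene, and a difference of 1 on this scale is a doubling.

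Array medians lay within 7.38 to 7.41. Markers of hippocampal neurons averaged 10.75 to 10.93 in Ts65Dn mice and 10.85 to 10.95 in controls, and those of lymphoid and infiltrating leukocytes averaged 5.50 to 5.59 in Ts65Dn mice and 5.50 to 5.66 in controls. Of the 8 neuronal markers, 4 had a positive difference. One of the others, Wfs1, was lower in every Ts65Dn mouse than in every control, as were 0.346% of all genes. The difference of Wfs1 was -0.35 (limma unadjusted p = 0.000324, adjusted p = 0.0925). The arrays differed most in markers of the choroid plexus, the secretory epithelium of the ventricles next to the hippocampus, whose mean ranged from 6.93 to 9.75 in Ts65Dn mice and from 6.96 to 9.57 in controls. In whole tissue of this kind, fewer cells of a type and less RNA per cell cannot be told apart.

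Type I interferons bind a receptor made of IFNAR1 and IFNAR2, whose kinases activate STAT2. It joins IRF9 in a complex that binds interferon-stimulated response elements and switches on a large set of antiviral genes. Interferon gamma acts through a separate receptor, of which IFNGR2 is a chain. Several genes of the response, among them Stat2, Irf9, Irf7 and the cytosolic RNA sensors, are induced by interferon themselves, so that the pathway feeds back on its own components. In the brain, microglia, endothelium and the epithelium of the choroid plexus are among the cells that respond to interferon.

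The short sequence read by this complex was looked for in the promoters, to show what the genes share apart from their names. Promoters were RefSeq sequences of GRCm38, reaching from 250 bases before to 50 bases after the start of each gene. The motif searched was TTTCNNTTTC or its reverse complement GAAANNGAAA, which covers both strands, and overlapping matches were allowed. At least 1 match was present in 12 of the 30 measured genes with a promoter in the table (40.0%), against 1079 of 27025 genes (3.99%) in the whole table. Matches were found in 2 of 8 signalling factors, 3 of 4 sensors and 7 of 18 effectors. The windows of 5 genes that the results below turn on are given 5′ to 3′ on the strand of the gene, with the motif in capitals. They lie at chr10:128270266-128270295 on the plus strand (Stat2, 222 bases before the start), chr19:34640794-34640823 on the plus strand (Ifit1, 85 bases before), chr19:34583397-34583426 on the plus strand (Ifit3, 122 bases before), chr17:78882535-78882564 on the minus strand (Eif2ak2) and chr4:40239804-40239833 on the minus strand (Ddx58). The last 2 motifs stand within the 50 bases after the start. Distances are from the start in the promoter table, which for Ifit3 lies inside the span annotated for the gene (34583119 to 34588982), so that its window does too. The lines show the same TTTC repeats, or their complement, in each.
Stat2: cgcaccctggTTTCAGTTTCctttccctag
Ifit1: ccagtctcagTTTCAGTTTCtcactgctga
Ifit3: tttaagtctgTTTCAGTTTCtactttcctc
Eif2ak2: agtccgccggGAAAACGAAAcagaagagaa
Ddx58: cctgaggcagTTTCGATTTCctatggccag
In the windows shown, Stat2, Ifit1 and Ifit3 share the letters TTTCAGTTTC. Ifit1 and Ifit3 each have a second match, not shown, that reads TTTCACTTTC. A match describes the letters only and does not show that a factor binds there.

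The first question was whether single genes of the response differed between Ts65Dn hippocampi and those of control littermates. Stat2, which encodes the STAT subunit particular to type I and type III interferon signalling, had the largest difference, with a level in Ts65Dn mice 1.19-fold that of controls, and Trim25, a ubiquitin ligase that activates the RNA sensor RIG-I, was 1.11-fold that of controls. Neither passed the adjusted threshold, and 0 of 37 genes had an adjusted p under 0.05 in either direction (limma, two-sided, Benjamini-Hochberg over all tested rows). The share of all genes past that threshold was 0.276% higher and 0.00502% lower in Ts65Dn. At an unadjusted p under 0.05, 2 of 37 genes (5.41%) were higher in Ts65Dn mice and 0 were lower, where 1.76% of all genes were higher and 1.56% were lower. Stat2 was the 1 gene with every Ts65Dn mouse above every control, as were 0.532% of all genes, and no member had every Ts65Dn mouse below every control, as had 0.346% of all genes.

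Across the 37 genes the differences were small. The median was 0.01 on the log2 scale, against -0.00 over all genes, and the values ran from -0.12 for Irf7 to 0.25 for Stat2. Positive differences were seen in 23 of 37 genes (62.2%), against 47.6% of all genes. The 95% intervals of the ratio between genotypes lay between 0.756 and 1.44 for all 37 genes, so that none reached the 1.5-fold ratio of 3 copies to 2 copies. A rank method over the 25 pairs of a Ts65Dn and a control array, made after the fold change ranking used by the study, called 4 of 37 genes (10.8%) higher, where it called 2.9% of all genes higher. These were Stat2, Trim25, Eif2ak2 and Ifit3. It called 0 of 37 lower, where 2.66% of all genes were lower.

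**Figure D1:**
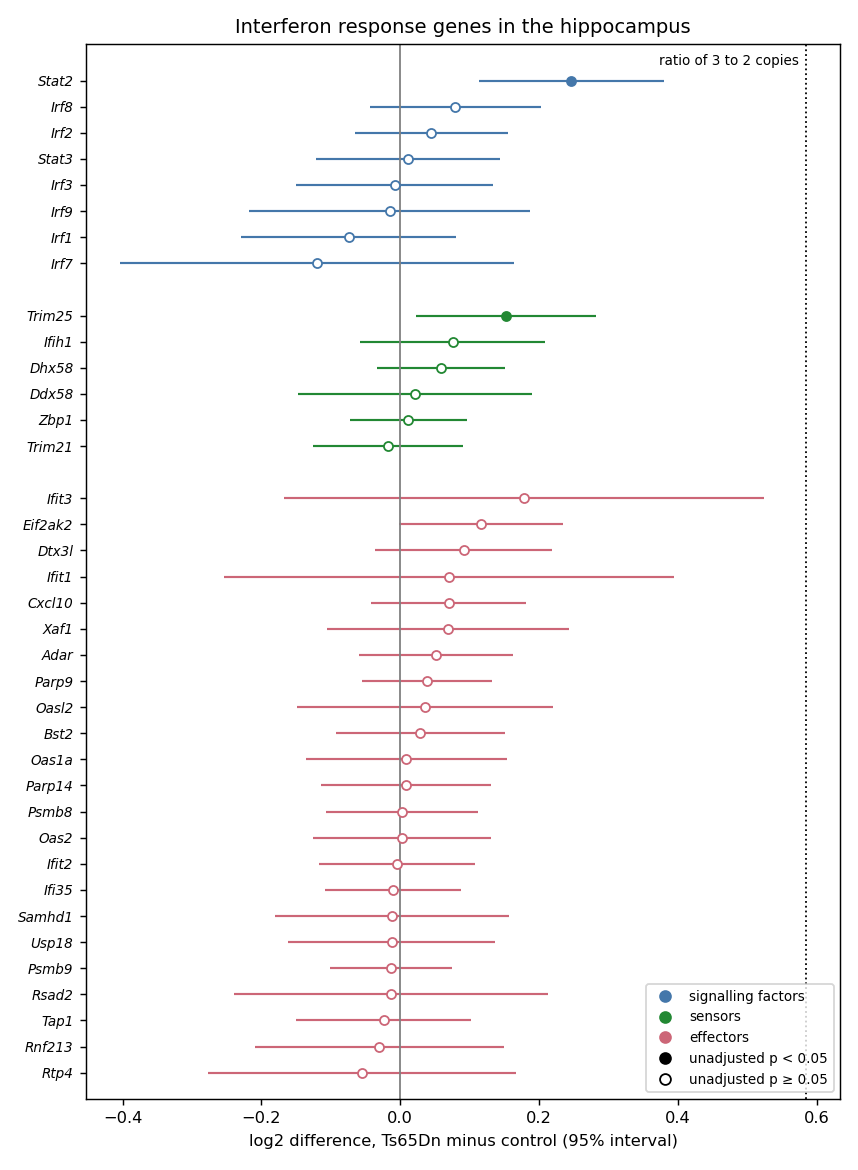
Log2 difference (Ts65Dn minus control) of the 37 measured genes, grouped by role, with the 95% interval of the limma fit (n = 5 mice per genotype); filled points had an unadjusted p under 0.05 and the dotted line marks the ratio of 3 to 2 copies. Stat2 at 0.25 and Trim25 at 0.15 are the filled points, and every interval ends left of the dotted line.

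Among the signalling factors, Stat2 (chromosome 10, 128270498 to 128292853 on GRCm38) had signals of 8.020, 8.151, 8.249, 8.294 and 8.005 in the Ts65Dn mice, against 7.936, 7.935, 7.842, 7.948 and 7.824 in controls. The lowest Ts65Dn mouse thus lay above the highest control, by a margin smaller than the spread within either genotype. The difference was 0.25 ± 0.06 (log2, SE, n = 5 per group; 1.19-fold, 95% interval 1.08 to 1.30; limma unadjusted p = 0.00177, adjusted p = 0.339). It remained positive when each mouse was left out in turn, between 0.21 and 0.28. Stat3, which transmits the signals of interleukin 6 and related cytokines, had 9.33, 9.36, 9.38, 9.61 and 9.39 in Ts65Dn mice and 9.28, 9.45, 9.33, 9.46 and 9.49 in controls. Apart from Ts65Dn mouse 4, which stood above all others, the genotypes occupied the same range, and the difference was 0.01 ± 0.06 (SE).

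The 6 interferon regulatory factors had 2 positive and 4 negative differences, and none had an unadjusted p under 0.05. Irf8, a factor of the myeloid lineage expressed by microglia, had 7.18, 7.31, 7.33, 7.31 and 7.54 in Ts65Dn mice, while the 5 controls lay within 7.24 to 7.27 (difference 0.08 ± 0.06, SE). Ts65Dn mice were thus found both above and below a narrow control range. Irf8, Irf7 and Irf9 are given in full here because of their values, not by the rule for named genes. Irf7 encodes the factor that amplifies type I interferon production, and its signals were 6.12, 6.23, 6.13, 5.96 and 6.13 in Ts65Dn mice and 5.99, 6.12, 6.21, 6.06 and 6.79 in controls. Control 5 was far above the other 9 mice, and without it the difference turned from -0.12 ± 0.13 (SE) to 0.02. Irf9, the gene of the DNA-binding partner of STAT2, had 7.54, 7.69, 7.26, 7.71 and 7.52 in Ts65Dn mice and 7.57, 7.62, 7.61, 7.31 and 7.69 in controls, with a difference of -0.02 ± 0.09 (SE). The genotypes overlapped over most of their range, with 1 low mouse in each, Ts65Dn 3 and control 4. Irf1, an activator induced by interferon gamma, was at -0.07, Irf2, its antagonist, at 0.04, and Irf3, which is phosphorylated when sensors are engaged, at -0.01.

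The sensors were represented by 4 receptors of nucleic acid and 2 ubiquitin ligases of the TRIM family. Trim25 (chromosome 11, 88999403 to 89020294) had 6.59, 6.64, 6.55, 6.85 and 6.62 in Ts65Dn mice, against 6.48, 6.51, 6.45, 6.44 and 6.62 in controls. Control 5 reached the level of the Ts65Dn mice, whereas the other 4 controls lay below all of them. The difference was 0.15 ± 0.06 (SE, n = 5 per group; 1.11-fold, 95% interval 1.02 to 1.22; limma unadjusted p = 0.0252, adjusted p = 1.00). The gene no longer met the unadjusted threshold without control 3 (limma unadjusted p = 0.0565) or without control 4 (limma unadjusted p = 0.0582). No motif match was present in the Trim25 promoter.

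Ddx58, the gene of RIG-I, which TRIM25 activates, had 7.74, 7.77, 7.54, 7.74 and 7.85 in Ts65Dn mice, against 7.53, 7.74, 7.76, 7.59 and 7.92 in controls. The genotypes overlapped fully, and the difference was 0.02 ± 0.08 (SE). Ifih1, encoding the long double-stranded RNA sensor MDA5, was at 0.08 and its regulator Dhx58 (LGP2) at 0.06. Zbp1, a sensor of Z-form nucleic acid, was at 0.01, and Trim21, the cytosolic antibody receptor, was the 1 sensor with a negative value, -0.02.

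**Figure D2:**
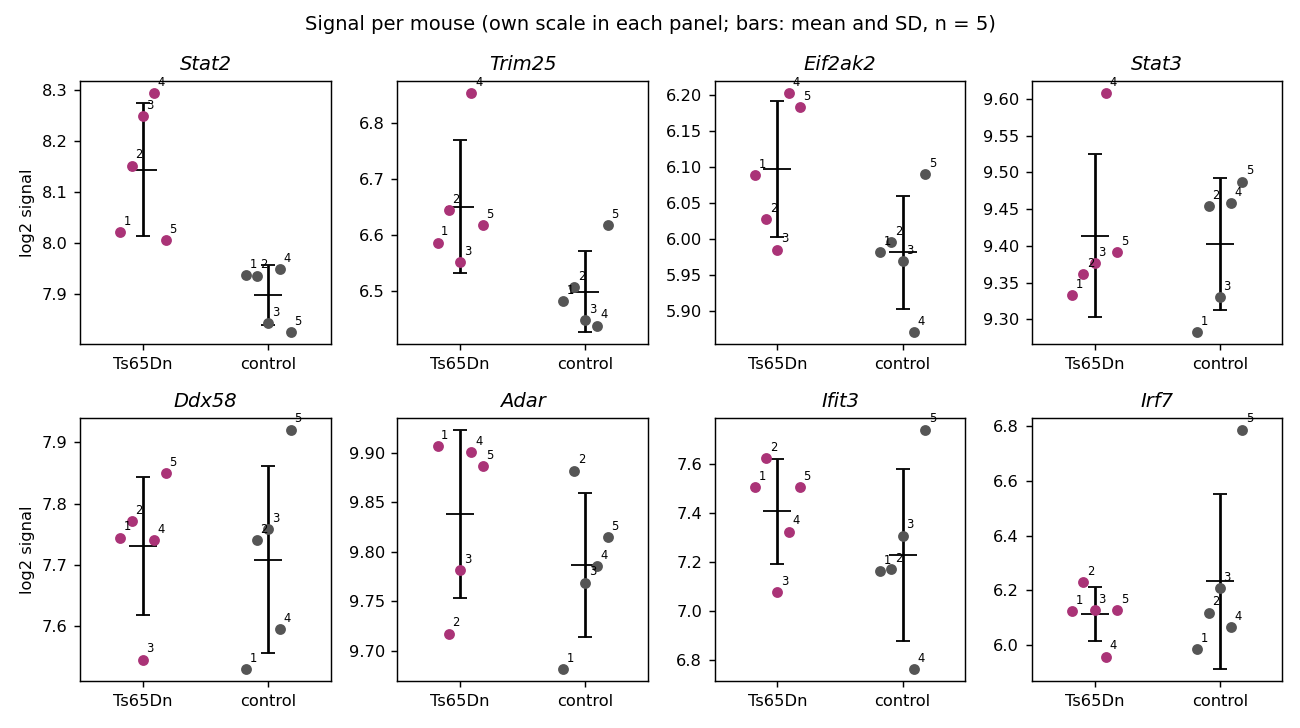
Log2 signal per mouse of 8 genes, with Ts65Dn on the left of each panel and control on the right; numbers are the mice, the bars give mean and SD of 5 mice, and scales differ between panels. Only for Stat2 do all Ts65Dn mice lie above all controls, and control 5 is the highest control for Trim25, Eif2ak2, Stat3, Ddx58, Ifit3 and Irf7.

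Among the 23 effectors, 0 had an unadjusted p under 0.05 in either direction, and 14 had a positive difference. Adar and Eif2ak2, grouped here as enzymes of double-stranded RNA, both had positive values. Adar, which edits adenosines in double-stranded RNA, had 9.91, 9.72, 9.78, 9.90 and 9.89 in Ts65Dn mice and 9.68, 9.88, 9.77, 9.79 and 9.81 in controls (difference 0.05 ± 0.05, SE). Eif2ak2, the gene of the kinase PKR, which stops translation by phosphorylating eIF2alpha, was also picked out after its values were seen. Its signals were 6.09, 6.03, 5.99, 6.20 and 6.18 in Ts65Dn mice, against 5.98, 6.00, 5.97, 5.87 and 6.09 in controls. All 5 Ts65Dn mice lay above the control mean, although control 5 lay above 3 of them, and the difference was 0.12 ± 0.05 (SE, n = 5 per group; limma unadjusted p = 0.0534, adjusted p = 1.00).

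The IFIT proteins bind viral RNA and block its translation, and Ifit3 and Ifit1 had the largest SD within genotypes among the 37 genes. Ifit3 had 7.51, 7.63, 7.08, 7.32 and 7.51 in Ts65Dn mice, against 7.16, 7.17, 7.31, 6.76 and 7.74 in controls. Its control values thus included both the lowest and the highest of the 10 mice, and the difference of 0.18 ± 0.16 (SE; 95% interval -0.17 to 0.52) was the largest among effectors without passing a test. Ifit1, likewise picked out after its values were seen, had 6.22, 6.30, 5.83, 6.33 and 6.46 in Ts65Dn mice and 5.86, 6.20, 6.17, 5.93 and 6.63 in controls (difference 0.07 ± 0.15, SE). In both genes Ts65Dn 3 was the lowest Ts65Dn mouse and control 5 the highest control. Ifit2, the third IFIT gene among the 37 and also on chromosome 19, was at -0.00.

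The other effectors stayed within 0.10 of 0 on the log2 scale. The 2′-5′-oligoadenylate synthetases and their relative, which signal through RNase L or bind RNA, were at 0.04 for Oasl2, 0.01 for Oas1a and 0.00 for Oas2. Dtx3l and Parp9, partners in a ubiquitin ligase complex, were at 0.09 and 0.04, and Parp14, an ADP-ribosyltransferase, at 0.01. The genes of peptide supply to class I molecules were at 0.00 for Psmb8, -0.01 for Psmb9 and -0.02 for Tap1. Usp18, which removes ISG15 from proteins and dampens receptor signalling, was at -0.01. The remaining differences were 0.07 for the chemokine Cxcl10, 0.07 for the apoptosis factor Xaf1, 0.03 for the virion tether Bst2, -0.01 for Ifi35, -0.01 for the nucleotide hydrolase Samhd1, -0.01 for the radical enzyme Rsad2, -0.03 for the ubiquitin ligase Rnf213 and -0.06 for Rtp4. Irf1 and Rnf213 each had a second row, at -0.01 and -0.02. The row that Isg15, the ubiquitin-like modifier, shares with Gm9706 had signals of 4.73 to 5.03 in Ts65Dn mice and 4.94 to 4.95 in controls, a difference of -0.07. For 7 of the 37 genes, 6 of them effectors, the mean signal was below 6.

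The second question was whether the response differed as a mean per mouse. The mean of all 37 genes was 6.88 ± 0.0433 in Ts65Dn mice and 6.85 ± 0.0570 in controls (SD, n = 5 each), a difference of 0.03 that was smaller than the SD of either genotype. Signalling factors averaged 7.76 ± 0.0455 in Ts65Dn mice and 7.74 ± 0.0602 in controls, a difference of 0.02. For sensors the means were 6.50 ± 0.0539 in Ts65Dn mice and 6.45 ± 0.0693 in controls, a difference of 0.05. Effectors averaged 6.66, 6.72, 6.59, 6.68 and 6.70 in the 5 Ts65Dn mice, against 6.63, 6.65, 6.63, 6.57 and 6.73 in the 5 controls, a difference of 0.03. The genotypes overlapped in all 3 role groups, with control 5 the highest of the 10 mice in each. Without control 5 the difference of the mean of all genes was 0.05, and without control 4 it was 0.01. No test was made on these means, since the genes were chosen with results of these data known.

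The mice differed from each other in a way that many of the genes shared. Control 5 was the highest control for 21 of the 37 genes (56.8%), where it was the highest for 19.8% of all genes, and control 4 was the lowest control for 12 (32.4%, against 14.4%). On the trisomic side, Ts65Dn 3 was the lowest Ts65Dn mouse for 15 genes (40.5%, against 16.5%). No single Ts65Dn mouse led as control 5 did. The highest was Ts65Dn 5 for 11 genes (29.7%), Ts65Dn 2 for 10 (27.0%, against 14.3%) and Ts65Dn 4 for 8 (21.6%). Shares over all genes are not given here for Ts65Dn 5 and Ts65Dn 4, so their counts cannot be read against a background. Genes of all roles took part, as control 5 led the controls for 5 of 8 signalling factors, 5 of 6 sensors and 11 of 23 effectors.

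**Figure D3:**
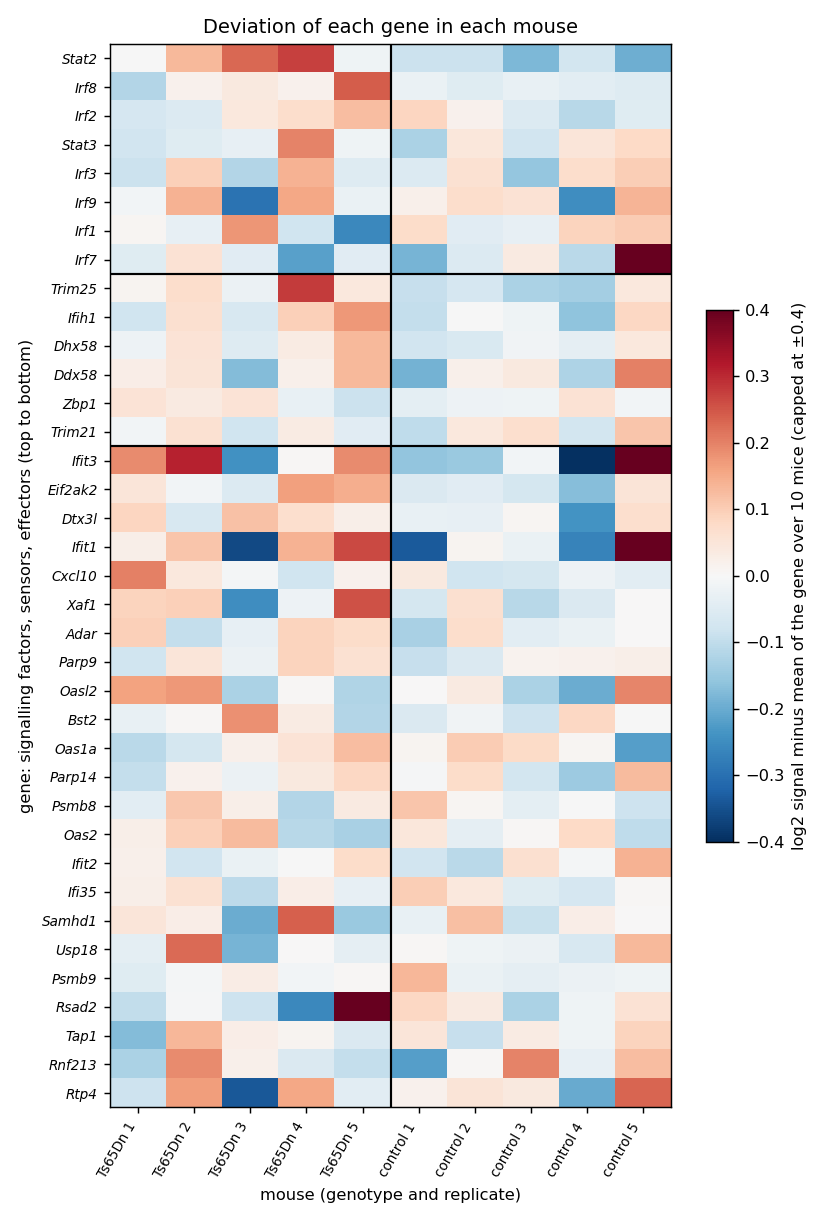
Log2 signal of each gene in each mouse minus the mean of the gene over the 10 mice, capped at 0.4 in either direction; rows run from signalling factors through sensors to effectors, and the 5 Ts65Dn mice stand left of the 5 controls. The columns of control 5 (mostly red) and of Ts65Dn 3 and control 4 (mostly blue) stand out, and Stat2 is the row that separates by genotype.

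Choroid plexus signal also differed between these mice. The mean of the 9 measured markers of 11 listed was 7.10, 9.75, 6.93, 9.12 and 8.17 in the Ts65Dn mice, against 7.70, 8.57, 7.11, 6.96 and 9.57 in controls. Prlr and Enpp2 of the list were not analysed here. Ttr, which encodes the transthyretin secreted by this epithelium, ranged from 8.93 to 13.61 in Ts65Dn mice and from 9.56 to 13.51 in controls. Ts65Dn 2 and control 5 had the highest marker means and the highest effector means, and Ts65Dn 3 and control 4 the lowest of both. The other roles matched in part. Control 5 was the highest control in both, and Ts65Dn 3 was the lowest Ts65Dn mouse for sensors. Ts65Dn 4 was the highest Ts65Dn mouse for signalling factors (7.82) and sensors (6.54). The lowest of their genotypes were Ts65Dn 1 (7.70) and control 3 (7.70) for signalling factors, and control 1 (6.37) for sensors. The genotypes overlapped over the whole range of the markers, with a difference of 0.23 beside an SD of 1.23 in Ts65Dn mice and 1.09 in controls.

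In a limma fit with genotype and the choroid plexus mean as terms, 11 of the 37 genes (29.7%) had a positive slope on that mean at an unadjusted p under 0.05, where 4.18% of all genes had one, and 0 had a negative slope (5.43% of all genes). Slopes were positive in 29 of 37 genes (78.4%), against 38.1% of all genes. The 11 genes were Irf3 and Irf9 among signalling factors, Trim25, Ifih1 and Ddx58 among sensors, and Rtp4, Usp18, Ifit1, Ifit3, Parp14 and Oasl2 among effectors. The smallest p was that of Rtp4, an interferon-induced chaperone of receptors, with a slope of 0.14 ± 0.03 per unit of the marker mean (SE; adjusted p = 0.0818), and 0 of 37 slopes passed the adjusted threshold that 0.366% of all genes passed. The count leaned on a few arrays, with 4 genes without control 5 (4.12% of all genes in the same fit), 7 without Ts65Dn 3 (3.22%) and 7 without control 4 (3.84%). Without the 3 arrays of highest marker mean (Ts65Dn 2, control 5 and Ts65Dn 4) it was 3, and the share of all genes was 1.84%. Stat2 was not among these genes, with a slope of 0.00 ± 0.03 (SE; limma unadjusted p = 0.887). With the marker mean in the fit, the genotype difference was 0.25 for Stat2 and 0.14 for Trim25 (limma unadjusted p = 0.00289 and 0.0135), and 0 genes passed the adjusted threshold. Without the 3 arrays of highest marker mean, the difference of Stat2 was 0.18 (limma unadjusted p = 0.0293).

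**Figure D4:**
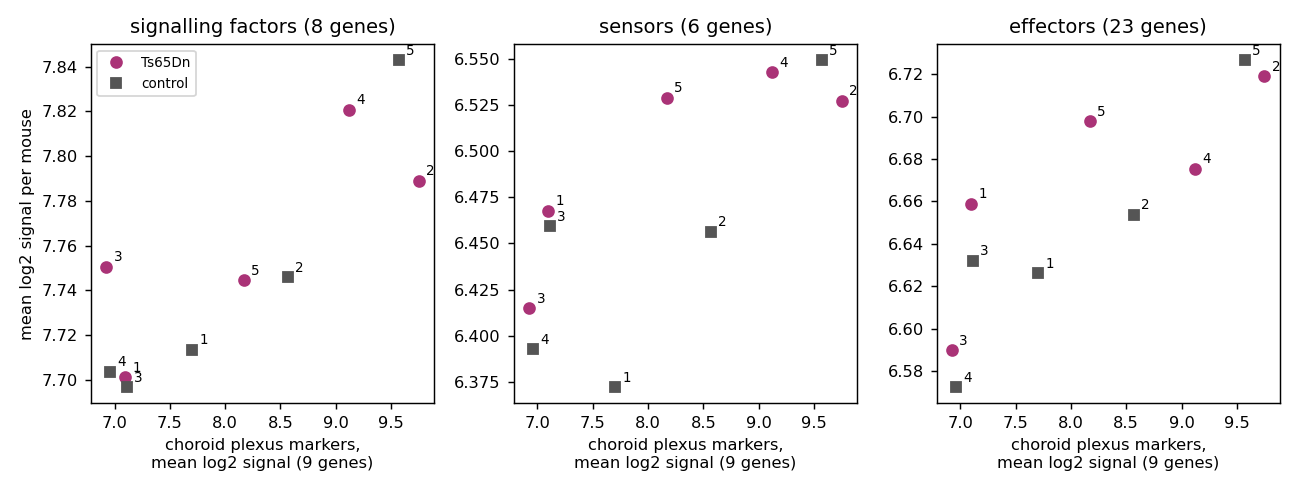
Mean log2 signal per mouse of signalling factors, sensors and effectors (vertical axes, own scale in each panel) against the mean log2 signal of 9 choroid plexus markers (horizontal axis); circles are Ts65Dn mice, squares controls, and numbers the mice. Control 5 and Ts65Dn 2 lie at the upper right of the effector panel and Ts65Dn 3 and control 4 at the lower left. In the signalling factor and sensor panels Ts65Dn 4 is the highest Ts65Dn mouse, and control 4 is not the lowest control.

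Markers of microglia and endothelium covered a narrower range. Microglial markers averaged 8.43 to 8.81 in Ts65Dn mice and 8.46 to 8.68 in controls, and 2 of 37 genes (5.41%) had a positive slope on their mean at an unadjusted p under 0.05, against 1.7% of all genes. Endothelial markers averaged 8.61 to 8.68 in Ts65Dn mice and 8.46 to 8.79 in controls, with control 5 the highest. On the endothelial mean 5 of 37 slopes (13.5%) were positive at that threshold, against 3.07% of all genes. The slope with the smallest p was that of Irf7, at 2.04 (limma unadjusted p = 0.000305). Control 5 had the highest value of the 10 mice for both Irf7 (6.79) and the endothelial mean (8.79). The endothelial slopes were not refitted without control 5. No slope on either mean passed the adjusted threshold in any gene measured. Other markers also differed between mice. Oligodendrocyte markers averaged 10.82 (Ts65Dn 3) to 11.47 in Ts65Dn mice and 11.13 to 11.30 (control 4) in controls. The rows of blood haemoglobin averaged 12.035 to 12.471 in Ts65Dn mice and 11.715 (control 4) to 12.467 in controls, with Ts65Dn 3 at 12.239. A link of the 37 genes to these means was not tested.

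Genes with and without the promoter motif overlapped in their differences. The 12 genes with a match had a median difference of 0.06, ranging from -0.02 to 0.25, and the 18 genes with a promoter and no match a median of -0.01, ranging from -0.12 to 0.15. Control 5 was the highest control for 6 of the 12 and for 10 of the 18. No test was made on these groups.

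Upstream of these genes, the receptor chains that lie on the Mmu16 segment were higher in Ts65Dn mice. The chains Il10rb, Ifnar1, Ifngr2 and Ifnar2 passed the adjusted threshold, each present in 3 copies. Ifnar1 had 9.54, 9.54, 9.39, 9.50 and 9.57 in Ts65Dn mice, against 8.93, 9.01, 9.03, 9.02 and 9.15 in controls (difference 0.48 ± 0.05, SE; adjusted p = 0.00184). Ifnar2 had 10.14, 10.14, 9.72, 10.06 and 9.78 in Ts65Dn mice, against 9.51, 9.38, 9.34, 8.98 and 9.38 in controls (0.65 ± 0.11, SE; adjusted p = 0.0346). Both genes showed no overlap between genotypes, as did Ifngr2 (0.48 ± 0.05, SE; adjusted p = 0.00184) and Il10rb, a chain of the receptors for interleukin 10 and interferon lambda (0.53 ± 0.05, SE; adjusted p = 0.000864). The interferon-induced GTPase genes Mx1 and Mx2, also in 3 copies, were at -0.04 and 0.02, with mean signals below 5 in both genotypes.

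Genes of the wider pathway list in 2 copies gave no call at the adjusted threshold. Of the 96 measured, 0 passed it (0.276% of all genes passed as higher), and at the unadjusted threshold 4 were higher in Ts65Dn mice and none was lower (limma), where 1.76% of all genes were higher and 1.56% lower. The 4 were Isg20, an exonuclease, at 0.16, Ube2l6, the conjugating enzyme of ISG15, at 0.14, Myd88, the adaptor of Toll-like receptors, at 0.11 and Trim14 at 0.08, and these make up 4.17% of the 96 genes. Positive differences were seen in 52 of the 96 genes (54.2%, against 47.6% of all genes), with a median of 0.01. In the other sublists the gene of smallest p was Ifna4 among ligands (-0.03), Stat4 among kinases and STATs (0.08), Ptpn2 among feedback inhibitors (0.11), Irf2bp1 among other IRF genes (-0.09) and Tapbp in class I presentation (0.09), none with an unadjusted p under 0.05.

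**Figure D5:**
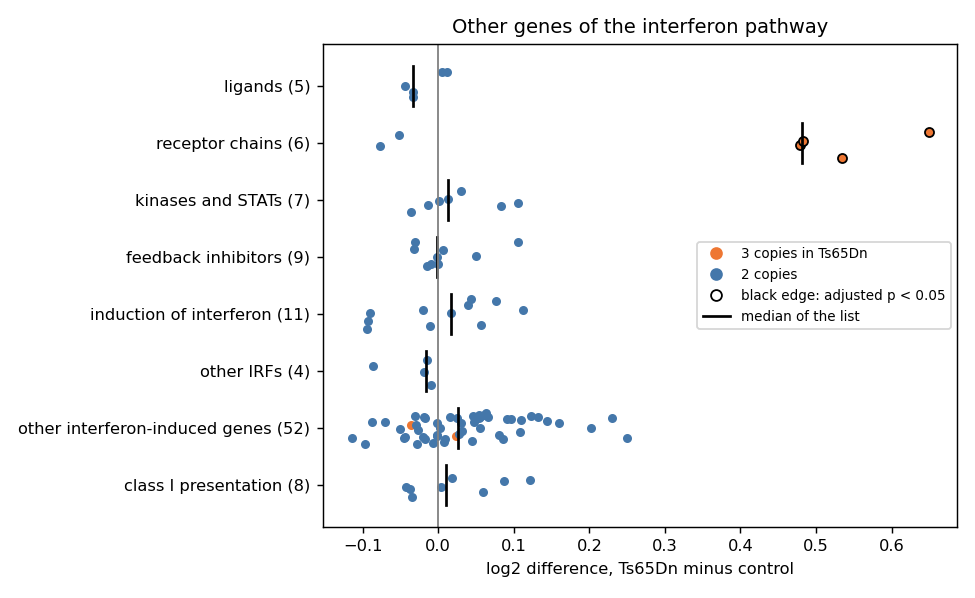
Log2 difference (Ts65Dn minus control) of the 102 measured genes of the wider interferon pathway, 1 point a gene, in rows by role with the number of genes in brackets; orange points are in 3 copies in Ts65Dn and black edges mark an adjusted p under 0.05. The 4 receptor chains in 3 copies lie between 0.48 and 0.65, whereas the other rows centre near 0.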

How the data were processed

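Total RNA of 10 hippocampi, 1 array per mouse, was hybridised to Affymetrix Mouse Gene 1.0 ST arrays. The authors deposited log2 signals made by RMA, and mm10, limma and RMA are named in the submitters' notes, with versions not given in the sources used here. The values were used as deposited. Of 35556 rows, 21789 had 1 gene symbol in the platform annotation, 1621 had several and 12146 none, and 21698 of those with 1 symbol matched RefSeq (GRCm38) by gene identifier. Genotypes (Ts65Dn, control) were compared on the 23410 rows with a symbol in limma (version 3.58.1, under R 4.3.3; lmFit, eBayes) without covariates, p-values were adjusted after Benjamini and Hochberg, and the code was tested on simulated data. Percentages over all genes use 1 row per gene (19938). The study ranked fold changes instead, and a method after it was an alternative. Named genes were those at an unadjusted p under 0.05, those whose genotypes did not overlap, and the highest signal and largest difference of each role; for the pathway list, those past adjusted p 0.05 and the smallest p of each sublist. The genes and lists were chosen with earlier results of these data known. The p-values measure the spread between mice, and the number of arrays limits the precision.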

Additional observations from a re-analysis of the deposited data

Results flagged for a closer look

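In 4 of 82 groups of 5 mice examined (37 genes and the means, each genotype apart), 1 mouse stood apart by a gap above Dixon's 95% limit for the range of its group, and chance flags about 1 in 20 groups. Stat3 was at 9.608 in Ts65Dn 4, with the other Ts65Dn mice between 9.333 and 9.391. Irf7 was at 6.787 in control 5, the control with the highest endothelial marker mean, with the other controls between 5.985 and 6.207. Psmb9, a subunit of the immunoproteasome, was at 7.661 in control 1, with the others between 7.492 and 7.511. Zbp1 was at 6.547 in control 4, with the others between 6.450 and 6.476.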

How the results depend on the processing

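No gene passed the adjusted threshold under any limma alternative. The alternatives were other rows, filters on dim rows, variance models, normalizations, an adjusted p of 0.1 and each mouse left out. Chosen after seeing the data were the choroid plexus mean as a covariate and the 3 arrays highest in it left out. The rank method, whose calls are the tails of its score and not a significance test, called 4. Stat2 kept a positive difference in all 23 alternatives, between 0.18 and 0.28, with adjusted p between 0.158 and 0.999. The number of genes higher at an unadjusted p under 0.05 ran from 1 to 4 when each mouse was left out (1 without control 3 or control 4, 4 without Ts65Dn 3 or control 5), and the number lower was 0 throughout. The number with a positive slope on the choroid plexus mean ran from 4 to 12, and was 3 without the 3 arrays. Differences near 0 changed sign: with array weights Stat3 was at -0.00584 and Irf9 at 0.000422, without the 3 arrays Stat3 was at -0.0147 and Irf7 at 0.0326, and with each mouse left out the ranges were -0.0373 to 0.0325 for Stat3, -0.0788 to 0.0567 for Irf9, -0.0230 to 0.0748 for Ddx58, -0.00463 to 0.189 for Ifit1 and -0.181 to 0.0195 for Irf7. The cause was not tested. The mean of effectors differed by 0.03, and their median by -0.02. The replicate number as a block gave 0 genes past the adjusted threshold and an adjusted p of 0.277 for Stat2; the labels do not say that it pairs mice, residuals of same-numbered mice correlated at 0.0313 to 0.507, and 4 of 5 Ts65Dn mice correlated best with the control of their number. With 5 mice per genotype and a median SD within genotypes of 0.0982, small differences of single genes could not be resolved.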
